A study of Caenorhabditis elegans with 8 samples.

Results

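The heterochronic genes set the order of cell fates through the larval stages of C. elegans, and 9 of them (lin-14, lin-28, lin-29, lin-41, lin-42, lin-46, hbl-1, daf-12 and apl-1) were followed here. They were selected by gene name from the deposited expression table, and all 9 were found among its 14541 genes. The animals in question were pals-17(*) mutants (allele syb3980, strain ERT994), in which stop codons placed in the third exon disrupt PALS-17, a protein that holds a defence programme against intracellular parasites in check. They had spent 72 h at 20 °C on OP50 bacteria after synchronization at the L1 stage, and they were set against the N2 wild type after 48 h under the same conditions, with 4 replicate libraries of whole-animal RNA per strain. The longer growth was meant to bring both strains to about the L4 stage. The mutants develop slowly and out of step, however, so a mutant library holds a mix of stages around L4. Growth time, stage and genotype therefore cannot be told apart in any comparison below. The mutants represent a single allele and strain.

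In the heterochronic pathway, early factors hold cells in early larval fates and small RNAs of the lin-4 and let-7 families remove these factors as development goes on. LIN-14, LIN-28, HBL-1 and LIN-41 are early or mid-larval factors, each limited by microRNAs that bind the 3' untranslated region (3' UTR) of its mRNA, while LIN-46 and LIN-29 act late and LIN-29 drives the switch of the epidermis to the adult state. LIN-42, the Period protein of worms, rises and falls once in each larval stage, DAF-12 couples timing to a steroid hormone, and apl-1 is an output of the pathway in the epidermis. Several of the genes also work outside the epidermis, and LIN-41 is a known regulator of oocytes. The lin-4 and let-7 microRNAs themselves were not analysed here.

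The deposited log2 values step as whole reads plus 0.5 over a scaled library size, and the reads behind them were recovered (18629170 to 21891721 per mutant library and 17871320 to 23378799 per wild-type library). Levels are given in CPM, the deposited unit taken off the log scale, in which reads are counted relative to the scaled library size. The targeted gene pals-17 was at 4.37 ± 0.224 CPM in pals-17(*) mutants and 16.03 ± 2.22 CPM in wild-type animals (SD, n = 4 each). Germline markers separated the strains. The summed level of 15 oocyte and early embryo markers was 4022 to 5282 CPM in mutant libraries and 50.6 to 247 CPM in wild-type libraries, and that of 6 sperm markers was 326 to 370 CPM in mutant libraries and 21.1 to 49.3 CPM in wild-type libraries. None of these markers was at 0 in all libraries. In such whole-animal libraries fewer cells of a type and less RNA per cell cannot be told apart.

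Of the 9 timing genes, lin-41 and lin-28 were higher in pals-17(*) mutants, while lin-42, hbl-1, lin-29, apl-1, lin-14 and daf-12 were lower, and lin-46 did not pass the test. Changes are log2 fold changes of mutants over wild type from limma, fitted over all genes, and a gene was called at a Benjamini-Hochberg adjusted p-value under 0.05. The difference between the strains was so broad that 42.5% of all genes were called higher and 41.2% were called lower, so that a call in either direction was common and the sizes of the changes say more than the calls. With a log2 fold change above 2 or below -2 also required, only lin-42 was called, against 28.1% of all genes. This depended on the scaling of the libraries, since lin-41 alone passed in its place with library totals and with quantile normalization. The strains did not overlap for lin-41 and lin-28, where all mutant libraries were the higher ones, as for 41.2% of all genes, nor for the 6 lower genes, where all mutant libraries were the lower ones, as for 39.0% of all genes. The median log2 fold change of the 9 genes was -0.68, beside 0.0041 over all genes.

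**Figure D1:**
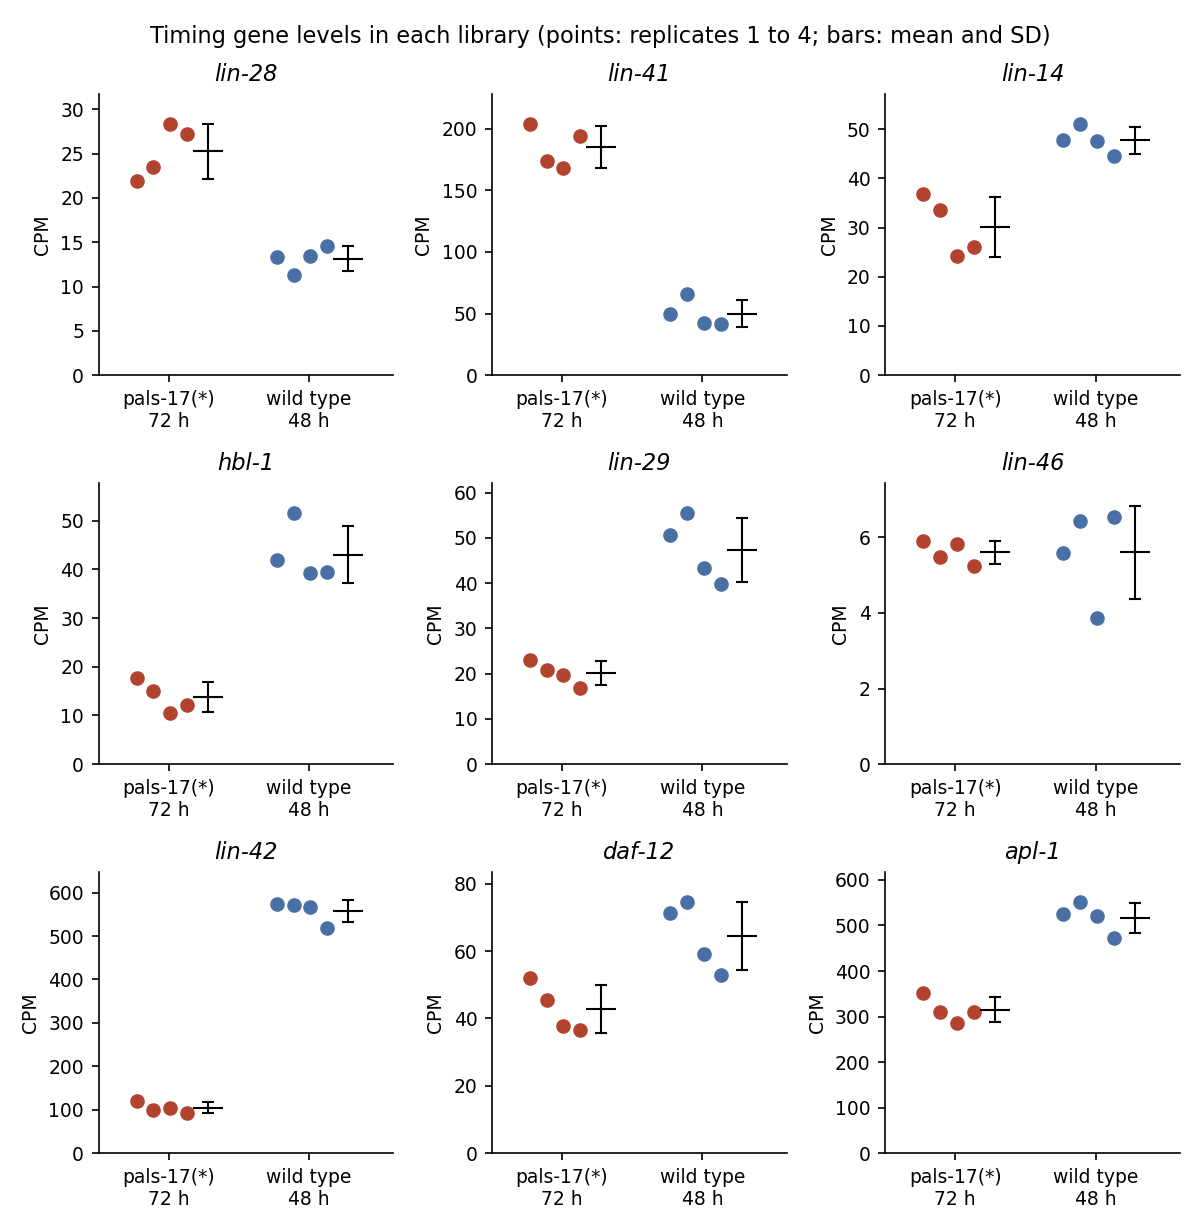
CPM of each of the 9 timing genes in the 4 pals-17(*) libraries (72 h, red) and the 4 wild-type libraries (48 h, blue), with replicates 1 to 4 from left to right and the mean and SD in black; each axis starts at 0. The strains do not overlap for 8 genes, and lin-46 overlaps, with 5.24 to 5.89 CPM in mutants inside the 3.88 to 6.54 CPM of wild-type animals.

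Among the early and mid-larval factors, lin-41 had the largest increase. The gene (WBGene00003026, WBcel235 chromosome I, 9334800 to 9342496, reverse strand) encodes a TRIM-NHL protein that binds and silences mRNAs, in larval epidermis and in oocytes. It stood at 204, 173, 168 and 194 CPM in the pals-17(*) libraries, against 49.9, 65.7, 42.3 and 41.8 CPM in the wild-type libraries. The lowest mutant library was thus far above the highest wild-type library. The log2 fold change was 1.91 (SE 0.139, adjusted p = 5.76e-07, limma), a 3.76-fold increase. It was 2.05 without wild-type replicate 2, the wild-type library with the most lin-41, and this was the sole left-out library that took lin-41 past a log2 fold change of 2. The mutant libraries also held more oocyte marker RNA, as given above, and the part of the oocytes in the lin-41 level was not tested.

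The RNA-binding protein LIN-28 blocks the maturation of let-7 and keeps early larval fates. Expression of lin-28 (WBGene00003014, chromosome I, 8407630 to 8410804, reverse strand) was 21.9, 23.5, 28.4 and 27.2 CPM in pals-17(*) libraries, against 13.3, 11.3, 13.5 and 14.6 CPM in wild-type libraries. All mutant libraries lay above all wild-type libraries, and the increase was 1.91-fold (log2 fold change 0.94, SE 0.112, adjusted p = 2.32e-05, limma).

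The other early factors were lower. LIN-14 is a nuclear protein that specifies the earliest larval fates and was the first known target of a microRNA. The gene lin-14 (WBGene00003003, X chromosome, 11465560 to 11485871) was at 36.8, 33.7, 24.2 and 26.0 CPM in pals-17(*) libraries, against 47.8, 51.1, 47.6 and 44.5 CPM in wild-type libraries. The strains did not overlap, but the mutant libraries fell into a higher pair (replicates 1 and 2) and a lower pair (replicates 3 and 4). The log2 fold change was -0.68 (SE 0.130, adjusted p = 0.000665, limma).

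HBL-1, a zinc-finger protein related to Hunchback of Drosophila, directs mid-larval fates. The gene hbl-1 (WBGene00001824, X chromosome, 5822142 to 5827755) was at 17.6, 14.99, 10.6 and 12.2 CPM in pals-17(*) libraries, against 41.9, 51.7, 39.3 and 39.4 CPM in wild-type libraries. No mutant library came near the lowest wild-type library, and the log2 fold change was -1.65 (SE 0.158, adjusted p = 4.33e-06, limma). The 4 early and mid-larval factors therefore differed in direction, with lin-41 and lin-28 higher and hbl-1 and lin-14 lower in the mutants.

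Of the late factors, lin-29 was lower and lin-46 was not called. LIN-29 is a zinc-finger transcription factor needed for the larval-to-adult switch of the seam cells, the lateral epidermal cells that make the adult ridges of the cuticle. Expression of lin-29 (WBGene00003015, chromosome II, 11917642 to 11935343, reverse strand) was 23.1, 20.7, 19.8 and 16.8 CPM in pals-17(*) libraries, against 50.6, 55.6, 43.3 and 39.9 CPM in wild-type libraries. The groups were clearly apart, and the log2 fold change was -1.23 (SE 0.126, adjusted p = 7.24e-06, limma). LIN-29 is made in more than 1 form, and the table gives a single value for the 3 annotated transcripts, so the forms were not compared.

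LIN-46 resembles gephyrin of mammals and acts against HBL-1, and its production is held back by LIN-28. The gene lin-46 (WBGene00003031, chromosome V, 12968855 to 12970730) had the fewest reads of the 9 genes, 132 to 156 per mutant library and 60 to 123 per wild-type library. It was at 5.89, 5.47, 5.82 and 5.24 CPM in pals-17(*) libraries, against 5.58, 6.42, 3.88 and 6.54 CPM in wild-type libraries. The strains overlapped, and the wild-type libraries spread far more widely than the mutant libraries. The log2 fold change was 0.02 (95% interval -0.35 to 0.40, adjusted p = 0.897, limma), an interval that includes 0 and differences of either sign.

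Under the deposited scaling, the largest difference of the 9 genes was that of lin-42 (WBGene00018572, chromosome II, 1233236 to 1252359, reverse strand). LIN-42 limits the transcription of microRNAs and times the molts. The gene was at 121, 100.3, 104.3 and 92.3 CPM in pals-17(*) libraries, against 573, 572, 567 and 520 CPM in wild-type libraries. No mutant library came near the wild-type libraries, of which 3 lay close together while replicate 4 was lower. The log2 fold change was -2.42 (SE 0.0835, adjusted p = 4.78e-09, limma), which means that lin-42 was 5.36-fold lower in mutants. With library totals lin-41 differed more (2.51, against -1.83 for lin-42), as it did with quantile normalization (2.36, against -1.77 for lin-42). The gene cycles within each stage, and the time within the stage at collection was not measured here. The summed level of 8 epidermal markers, most of which encode cuticle and apical proteins, was 768 to 946 CPM in mutants and 3987 to 4741 CPM in wild-type animals. This sum rests largely on the collagen genes sqt-3 and dpy-13, with means of 2025 and 1421 CPM in wild-type animals. The epidermal transcription factor genes did not follow it, as lin-26 was not called (log2 fold change -0.16) and elt-3 was higher (0.28). The part of the epidermis in the lin-42, hbl-1 and lin-29 levels was not tested. The 7 annotated transcripts of lin-42 share a single value in the table.

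Both remaining genes were moderately lower. DAF-12 is a nuclear receptor that lets development proceed when its ligand, a dafachronic acid, is present and otherwise helps to form the dauer larva. The gene daf-12 (WBGene00000908, X chromosome, 10635908 to 10666875) was at 51.9, 45.4, 37.8 and 36.5 CPM in pals-17(*) libraries, against 71.2, 74.7, 59.3 and 52.9 CPM in wild-type libraries. The highest mutant library nearly met the lowest wild-type library, the narrowest gap among the 8 genes called, and the log2 fold change was -0.59 (SE 0.140, adjusted p = 0.00278, limma).

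The amyloid precursor-like protein APL-1 is essential for molting and is made in neurons, muscle and epidermis. Expression of apl-1 (WBGene00000149, X chromosome, 5112422 to 5116866, reverse strand) was 352, 310.0, 286 and 310.2 CPM in pals-17(*) libraries, against 524, 552, 520 and 472 CPM in wild-type libraries. The strains were well apart, and the log2 fold change was -0.72 (SE 0.0766, adjusted p = 9.60e-06, limma). Beside this, the summed level of 10 neuron markers was 583 to 656 CPM in mutants and 856 to 874 CPM in wild-type animals. Under the deposited scaling 8 of the 10 were called lower, against 41.2% of all genes, while snb-1 and egl-3 were not called. The median log2 fold change of the 10 was -0.51, beside 0.0041 over all genes. Library totals shift every gene up alike and put the median of all genes at 0.60, so the count of 8 depends on the scaling. The part of the neurons in the apl-1 level was not tested.

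The smaller differences depended on how the libraries were scaled to each other. The scaled library sizes behind the deposited values are 1.20 to 1.26 times the recovered reads in mutants and 0.793 to 0.822 times in wild-type animals. With each library scaled to its total reads instead, the median log2 fold change of all genes became 0.60, and those of lin-14 (-0.087, adjusted p = 0.549, limma), daf-12 (0.0058, adjusted p = 0.971) and apl-1 (-0.12, adjusted p = 0.141) no longer passed the test. Library totals shift every gene by the same amount. With quantile normalization apl-1 was at 0.13 (adjusted p = 0.088, limma). The calls on lin-41, lin-28, lin-29, hbl-1 and lin-42 held under library totals, median centring and quantile normalization, with log2 fold changes of 1.63 to 2.51 for lin-41, 0.66 to 1.53 for lin-28, -1.51 to -0.64 for lin-29, -1.93 to -1.06 for hbl-1 and -2.70 to -1.77 for lin-42. The gene lin-46 took either sign, 0.62 with library totals (adjusted p = 0.00777, limma) and -0.71 with quantile normalization (adjusted p = 0.00224).

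**Figure D2:**
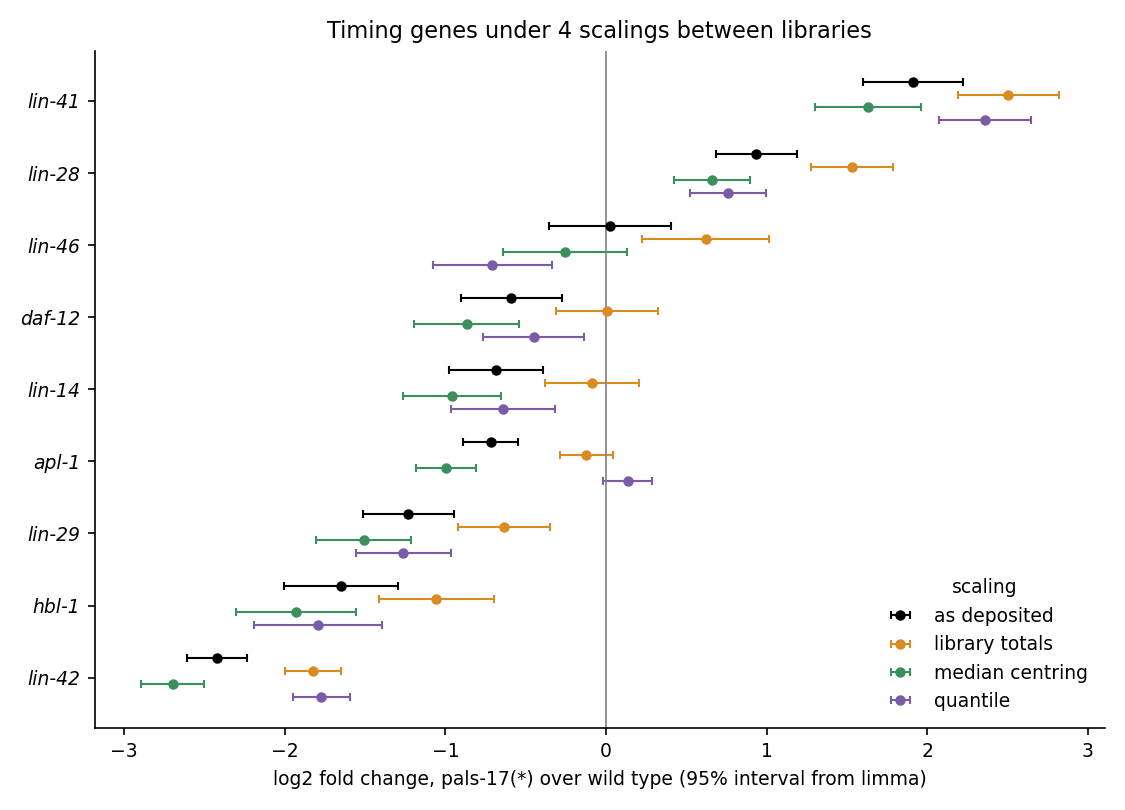
Log2 fold change of pals-17(*) over wild type (x axis, with 95% intervals, limma) for the 9 timing genes under the deposited scaling and 3 other scalings. The genes lin-41 and lin-28 stay above 0 and lin-29, hbl-1 and lin-42 stay below 0 under all 4 scalings, while the intervals of lin-14, daf-12 and apl-1 include 0 with library totals and lin-46 lies on both sides of 0.

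A ratio of 2 genes in the same library does not change with a single factor per library, such as library totals or median centring, so 4 such ratios were compared as descriptions, without a test. The ratio of lin-29 to lin-41, which contrasts the late switch factor with the repressor of its mRNA, had a log2 value of -3.20 ± 0.220 in pals-17(*) libraries and -0.063 ± 0.126 in wild-type libraries (SD, n = 4 each). These ratios are not corrected for gene length, so the difference between strains is what they show, and here it was -3.14. The ratio of lin-46 to lin-28 was -2.16 ± 0.214 in mutants and -1.25 ± 0.407 in wild-type animals (SD, n = 4 each), with the highest mutant library at -1.89 and the lowest wild-type library at -1.79. The ratio of lin-42 to apl-1 was -1.59 ± 0.125 in mutants and 0.11 ± 0.0406 in wild-type animals (SD, n = 4 each). The ratio of hbl-1 to lin-14 was -1.13 ± 0.0617 in mutants and -0.16 ± 0.122 in wild-type animals (SD, n = 4 each). All 4 ratios were lower in mutants, a direction that depends on which gene was made the numerator, and in each of them the strains did not overlap. Each difference is that between the log2 fold changes of its 2 genes given above, so the ratios are not separate evidence. Quantile normalization does not cancel in a ratio, and with it the differences between strains were -3.62 for lin-29 to lin-41, -1.47 for lin-46 to lin-28, -1.91 for lin-42 to apl-1 and -1.15 for hbl-1 to lin-14.

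**Figure D3:**
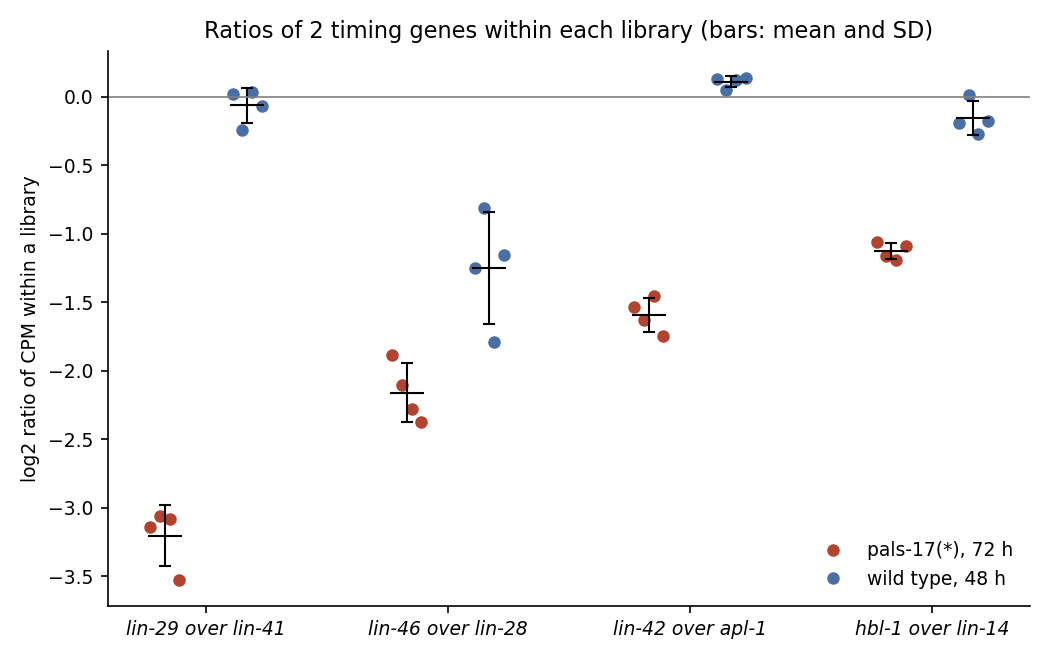
Log2 ratio of CPM of 2 timing genes within each library (y axis) for 4 pairs, with pals-17(*) libraries in red to the left of the wild-type libraries in blue, and mean and SD in black. The ratio of lin-29 to lin-41 shows the widest separation, with means of -3.20 in mutants and -0.063 in wild-type animals.

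Compared by level per kilobase of annotated exon, the order of the 9 genes differed between the strains. In pals-17(*) mutants the order was apl-1 (114.8 CPM per kilobase), lin-41 (38.5), lin-42 (26.1), lin-28 (17.4), daf-12 (9.65), lin-29 (8.73), lin-14 (8.23), lin-46 (4.11) and hbl-1 (3.09). In wild-type animals it was apl-1 (189 CPM per kilobase), lin-42 (139), lin-29 (20.5), daf-12 (14.5), lin-14 (13.03), lin-41 (10.4), hbl-1 (9.62), lin-28 (9.06) and lin-46 (4.11). The ranges of libraries overlapped between daf-12, lin-29 and lin-14 and between lin-46 and hbl-1 in mutants, and between each neighbouring pair from daf-12 to lin-28 in wild-type animals. The rank of lin-41 was thus 2 in mutants and 6 in wild-type animals, that of lin-29 was 6 in mutants and 3 in wild-type animals, and that of hbl-1 was 9 in mutants and 7 in wild-type animals.

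**Figure D4:**
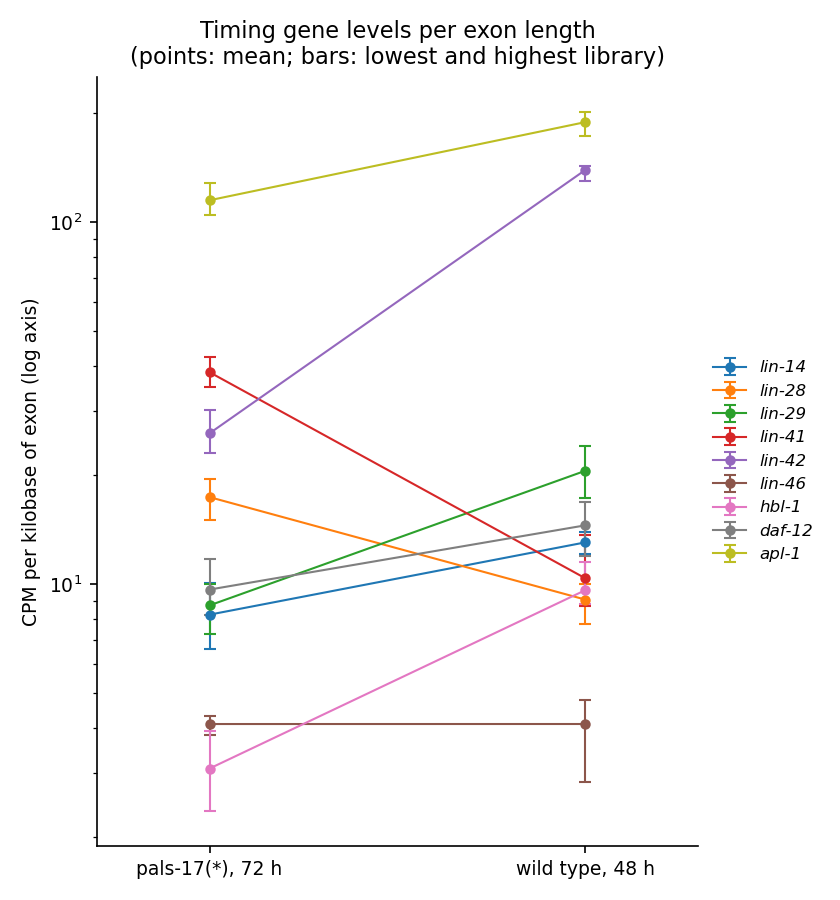
Mean CPM per kilobase of exon (log axis) of the 9 timing genes in pals-17(*) mutants (left) and wild-type animals (right), with bars from the lowest to the highest of 4 libraries. The lines of lin-41 and lin-42 cross, since lin-41 is at 38.5 in mutants and 10.4 in wild-type animals and lin-42 is at 26.1 in mutants and 139 in wild-type animals, while lin-46 is flat.

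The libraries of a strain also differed among themselves in the same way for several genes. Each of the 6 lower genes was at its mutant maximum in pals-17(*) replicate 1, and their mutant minima lay in replicates 3 and 4, with 3 genes each. In the wild type, 5 of the 6 were highest in replicate 2 and 5 of the 6 were lowest in replicate 4. The mutant pattern was not confined to the timing genes. Among lower partner genes, alg-1, dre-1, mab-10 and myrf-1 were also highest in pals-17(*) replicate 1, but daf-36 and dhs-16 were highest in replicate 2. The share of all genes with these patterns was not counted. With each library left out in turn, the log2 fold changes stayed between -0.79 and -0.58 for lin-14, between -0.69 and -0.52 for daf-12 and between -0.77 and -0.67 for apl-1, and no call on any of the 9 genes was lost or gained.

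The 9 genes lie on 4 chromosomes, and the 8 genes called under the deposited scaling had the same direction within each chromosome. Both genes on chromosome I (lin-28 and lin-41) were higher, both on chromosome II (lin-29 and lin-42) were lower, and all 4 on the X chromosome (lin-14, hbl-1, daf-12 and apl-1) were lower. Of the 1969 genes of the X chromosome in the table, 58.7% were called lower, and their median log2 fold change was -0.56. The median was 0.17 on chromosome I and 0.12 on chromosome II, where the shares called were not counted. Library totals put the median of all genes at 0.60, and with them hbl-1 alone of the 4 X-linked timing genes was called lower. The X chromosome is largely silent in worm germ cells at stages before the oocyte. The germline markers given above, mostly of oocytes and early embryos, were higher in mutants. The part of the germline in the lower X-linked levels was not tested. The annotated 3' UTRs of the 9 mRNAs are long in most cases, up to 1604 bases in lin-14, 1394 in hbl-1 and daf-12 and 1165 in lin-41, but 153 bases in lin-46. For 4 genes other annotated exons overlap theirs. On the opposite strand, F02E9.1, hmg-12 and C42D8.1 share 16 bases with lin-28, 2 with lin-29 and 5 with apl-1, and 2 small nucleolar RNA genes lie within exons of lin-14, with 108 and 99 bases in common. Since the use of strands in counting is not stated, such reads cannot be told apart, but these stretches are short beside exon lengths of 1453 bases in lin-28 and more in lin-14, lin-29 and apl-1.

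For each timing gene, the gene with the most similar pattern over the 8 libraries was found by Pearson's correlation of log2 values. These were K06A9.1 for lin-14 (r = 0.997), memb-2 for lin-28 (0.996), rol-3 for lin-29 (0.998), T07F8.4 for lin-41 (0.999), let-630 for lin-42 (1.000), ZK816.1 for lin-46 (0.961), pqn-39 for hbl-1 (0.998), tmem-131 for daf-12 (0.997) and eif-3.B for apl-1 (0.999). All libraries share the split between strains, so high values are common, and 1173 genes reached a correlation of 0.99 with lin-42 but none did with lin-46. Among the 9 genes themselves, hbl-1 and apl-1 were most alike (r = 0.991), and lin-28 and lin-41 had r = 0.890.

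A wider list of 35 partners of the timing genes, chosen from general knowledge, held 34 genes in the table. Of these, 5 were higher in pals-17(*) mutants, 23 were lower and 6 were not called, against 42.5% and 41.2% of all genes called higher and lower. Their median change was -0.75 on the log2 scale, beside 0.0041 over all genes. These counts depended on scaling, as did those of all genes. With library totals 13 partners were higher and 17 were lower, where 8742 and 3390 of all 14541 genes were called higher and lower. With quantile normalization 9 partners were higher, where 5687 of all genes were called higher.

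Of 10 genes of the microRNA machinery, 2 were higher and 5 were lower, against 42.5% and 41.2% of all genes. With library totals 7 were higher and 3 were lower, where 8742 and 3390 of all 14541 genes were called higher and lower. The 2 higher under the deposited scaling were pash-1 and drsh-1, whose proteins cut the primary transcripts of microRNAs in the nucleus. The level of pash-1 was 38.2, 36.6, 39.7 and 40.0 CPM in mutants, against 9.09, 9.30, 8.08 and 7.97 CPM in wild-type animals, which gave a log2 fold change of 2.16 (SE 0.0805, adjusted p = 7.54e-09, limma), beside 1.604 for drsh-1. The lower ones included alg-1, the main Argonaute of microRNAs, with 110.1 ± 19.5 CPM in mutants and 300.6 ± 27.3 CPM in wild-type animals (SD, n = 4 each; log2 fold change -1.46, adjusted p = 1.22e-06, limma). The GW182 protein gene ain-1, which acts with ALG-1 on target mRNAs, had a log2 fold change of -0.89 (adjusted p = 5.51e-06). Oocytes carry many maternal mRNAs, and the part of the oocyte marker difference in these levels was not tested.

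Among 8 modulators of the timing genes, 1 was higher and 6 were lower, against 42.5% and 41.2% of all genes. With library totals 2 modulators were higher and 4 were lower, against 8742 and 3390 of all 14541 genes. The 1 higher under the deposited scaling was pup-2, which encodes a poly(U) polymerase that works with LIN-28 on the let-7 precursor. It stood at 197 ± 9.74 CPM in mutants and 60.7 ± 5.62 CPM in wild-type animals (SD, n = 4 each), a log2 fold change of 1.70 (adjusted p = 2.18e-08, limma), the same direction as lin-28. The largest fall was that of mab-10, the cofactor of LIN-29 and, like lin-29, a known target of LIN-41. Its level was 36.3, 30.4, 27.5 and 27.8 CPM in mutants, against 118, 123, 96.5 and 88.1 CPM in wild-type animals, with a log2 fold change of -1.80 (SE 0.127, adjusted p = 4.61e-07, limma). In all mutant libraries lin-41 was higher while both lin-29 and mab-10 were lower. Whether LIN-41 had a part in these lower levels was not tested. The F-box gene dre-1, whose protein degrades BLMP-1, had a log2 fold change of -1.55 (adjusted p = 2.02e-08).

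Of 5 genes of the steroid hormone pathway of DAF-12, 4 were in the table and 3 of them were lower, against 41.2% of all genes. With library totals 2 were lower and 1 was higher, against 3390 and 8742 of all 14541 genes. The dehydrogenase gene dhs-16, an enzyme of dafachronic acid synthesis, was at 1.39 ± 0.233 CPM in mutants and 10.2 ± 0.875 CPM in wild-type animals (SD, n = 4 each; log2 fold change -2.87, adjusted p = 7.15e-08, limma). At this low level the size of the change depended on the processing, with -3.89 under quantile normalization, -2.27 with library totals and -2.23 with 1 CPM added. The DAF-12 corepressor gene din-1 was at -0.98 (adjusted p = 1.60e-05), and daf-36, the oxygenase of the initial step, was at -0.33 (adjusted p = 0.0164), but at 0.26 (adjusted p = 0.055) with library totals. The gene daf-9, which makes the final ligand, was not called (0.25, adjusted p = 0.113, limma), but it was the 1 called higher with library totals.

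Of 8 transcription factors of the larval cycle, 7 were lower and none was higher, against 41.2% and 42.5% of all genes, and the median of their changes was -1.44 on the log2 scale. With library totals 6 were lower and 1 was higher, against 3390 and 8742 of all 14541 genes, and the median was -0.85. The largest was myrf-1, an activator of lin-4 transcription, with 93.0, 73.01, 69.6 and 64.5 CPM in mutants, against 400, 438, 342 and 299 CPM in wild-type animals (log2 fold change -2.30, SE 0.140, adjusted p = 1.62e-07, limma). Its paralog myrf-2 was at -1.19 (adjusted p = 2.32e-06). Not called was nhr-23, a receptor that drives molting genes, with 59.3 ± 5.35 CPM in mutants and 51.8 ± 14.1 CPM in wild-type animals (SD, n = 4 each; log2 fold change 0.23, 95% interval -0.15 to 0.61, adjusted p = 0.223, limma). It was the 1 factor of this list called higher with library totals.

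Of 4 seam and adult cuticle outputs, 2 were higher and 2 were lower, against 42.5% and 41.2% of all genes. Adult collagen gene col-19, which LIN-29 activates, was at 2630, 2408, 2421 and 2709 CPM in mutants, against 90.6, 37.8, 67.0 and 13.5 CPM in wild-type animals (log2 fold change 5.92, SE 0.481, adjusted p = 1.30e-06, limma). Its change was 5.37 without wild-type replicate 4, the library with the least col-19. The adult collagen gene col-7 was at 73.4, 84.2, 66.3 and 69.8 CPM in mutants, against 27.9, 9.14, 20.2 and 1.29 CPM in wild-type animals, whose libraries were widely spread. The log2 fold change of col-7 was 3.01 (SE 0.784, adjusted p = 0.00477, limma), but 2.08 without wild-type replicate 4, where it was lowest, and 3.55 without wild-type replicate 1, where it was highest. The fusogen genes aff-1 and eff-1, whose proteins fuse epidermal cells, were at -2.10 and -1.35. The rise of col-19 thus stood beside a lower lin-29 in every mutant library, in libraries that pooled several stages. The summed level of 6 seam cell markers was 47.6 to 51.1 CPM in mutants and 44.6 to 65.0 CPM in wild-type animals. This sum rests largely on grd-10, with 25.5 to 26.9 CPM in mutants and 24.9 to 40.8 CPM in wild-type animals, and hides differences among the others. Under the deposited scaling rnt-1 and egl-18 were higher and elt-6, nhr-73 and bro-1 were lower. Of these, elt-6 (-0.033), nhr-73 (-0.22) and bro-1 (0.22) were not called with library totals. Nor was egl-18 called with median centring (0.28) or quantile normalization (0.16), or rnt-1 with quantile normalization (0.23).

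**Figure D5:**
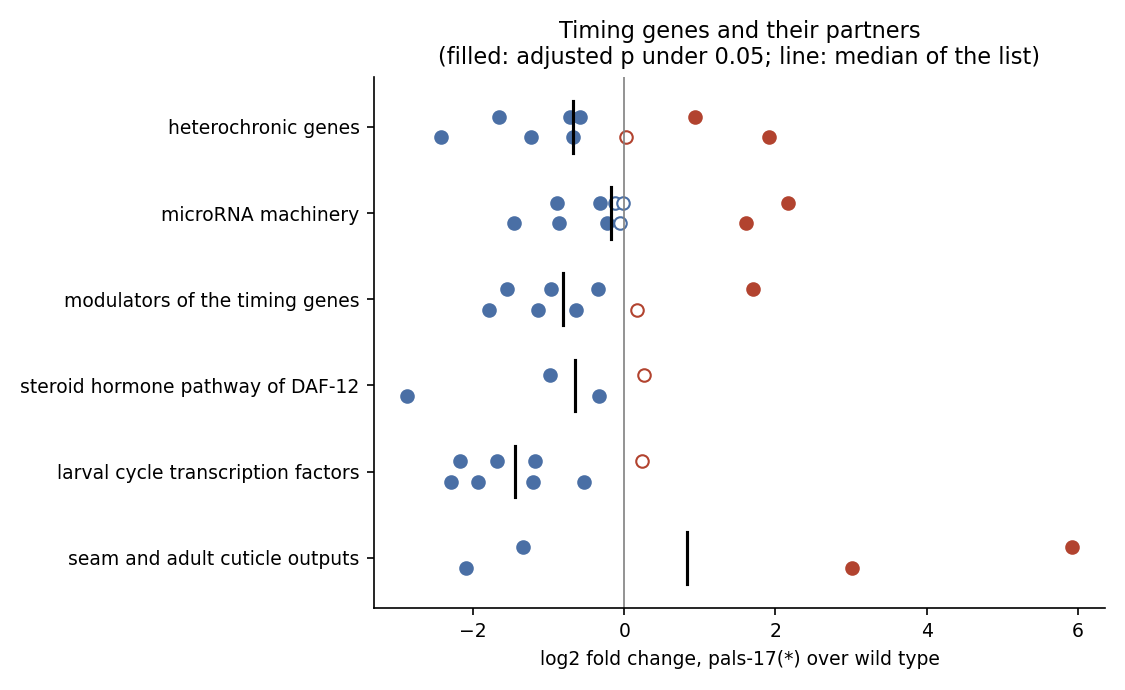
Log2 fold change of pals-17(*) over wild type (x axis) for each gene of the 9 heterochronic genes and of 5 partner lists; filled points have an adjusted p-value under 0.05, red is above 0 and blue below, and the black line is the median of the list. The larval cycle transcription factors have the lowest median, at -1.44, and col-19 lies farthest to the right, at 5.92.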

How the data were processed

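Paired-end reads from 8 whole-animal mRNA libraries (TruSeq Stranded) were mapped by the authors to the WS235 genome with Rsubread. The submitters' processing notes name featureCounts and limma, and the study's methods name limma-voom in Galaxy and the removal of genes under 1 CPM. The deposited table holds normalized log2 CPM values; the scaling method, annotation and use of strands are not given in the sources used here. For 100% of values the recovered reads came within 0.01 of a whole number. A row that names no gene (0.00275 to 0.00568% of reads) was dropped. Each library held between 17871320 and 23378799 recovered reads. Strains were compared over 14541 genes with limma 3.58.1 in R 4.3.3 (intensity trend, equal weights, 2-sided, Benjamini-Hochberg adjustment over all genes). The procedure was first run on simulated data with few changed genes and known library scaling, so that run cannot judge the scaling. P-values set the difference between strains against the spread between libraries of a strain, and do not cover variation between alleles. Coordinates and exon lengths were taken from the WBcel235 annotation of Ensembl, where 14531 of the gene identifiers were found. The timing genes and lists were chosen with earlier results of these data known. Genes named are the 9 timing genes, per partner list the 2 of the highest level and that of the largest change, and the gene most like each timing gene; drsh-1, daf-9, nhr-23, aff-1, eff-1 and the marker genes named singly were added after their values were seen. Alternatives were voom weights, no trend, a replicate block, 1 CPM added, a filter of 1 CPM in 4 libraries, 3 scalings, and each library left out.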

Additional observations from a re-analysis of the deposited data

Results flagged for a closer look

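In 72 groups of 4 libraries (32 named genes and 4 ratios, in 2 strains), 3 held a library whose gap to the others was above Dixon's 95% critical value, where chance gives about 1 in 20. The log2 CPM of lin-42 was 9.02 in wild-type replicate 4 and 9.15 to 9.16 in the other wild-type libraries. The log2 ratio of lin-29 to lin-41 was -3.53 in pals-17(*) replicate 4 and -3.14 to -3.06 in the other mutant libraries. The log2 ratio of lin-42 to apl-1 was 0.0501 in wild-type replicate 2 and 0.12 to 0.14 in the other wild-type libraries.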

How the results depend on the processing

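Voom weights, no trend, 1 CPM added and the filter changed no call on the 32 named genes. Deviations of same-numbered libraries from their strain means had r between -0.017 and 0.073, which does not settle whether the numbers mark pairs. The replicate block again gave 6 timing genes lower and 2 higher. With library totals 3 timing genes were lower and 13 partners were higher, and log2 fold changes turned to 0.0058 for daf-12, 0.26 for daf-36, 0.54 for ZK816.1 and 0.12 for tmem-131. With quantile normalization 9 partners were higher, lin-41 was the timing gene past a log2 fold change of 2, as with library totals, and values turned to -0.71 for lin-46, 0.13 for apl-1, 0.089 for tmem-131 and 0.092 for eif-3.B. Median centring turned lin-46 to -0.25. Of all called genes 50.8% were higher, against 72.1% with library totals, 41.9% with median centring and 46.2% with quantile normalization, with all-gene medians of 0.60, -0.27 and -0.12. The first 2 of these scalings shift all genes alike, while quantile normalization moves genes by different amounts. With a library left out, 1 to 2 timing genes passed a log2 fold change of 2 (2 without wild-type replicate 2), lin-46 lay between -0.14 (without wild-type replicate 3) and 0.11, and ZK816.1 lay between -0.28 and 0.077, with values of 0.077, 0.052 and 0.013 without wild-type replicate 2, wild-type replicate 4 and pals-17(*) replicate 4. The ratios with quantile normalization, chosen after seeing the data, differed between strains by -3.62 (lin-29 to lin-41), -1.47 (lin-46 to lin-28), -1.91 (lin-42 to apl-1) and -1.15 (hbl-1 to lin-14). Reads are few for lin-46 (60 to 156 per library) and fewer for ZK816.1 (15 to 46), where counting error is larger.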

Other observations

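The epidermal markers beside the timing genes did not change as a block, in an observation made after the values were seen. Of 8 epidermis genes, 6 were lower past a log2 fold change of -2. Over all genes, 28.1% were called past 2 in either direction. The 6 were the collagen genes dpy-7, dpy-13, sqt-3 and rol-6, together with che-14 and bus-8. Of these 6, sqt-3 alone was past -2 with library totals. The epidermal transcription factor genes differed less: lin-26 had a log2 fold change of -0.16 (adjusted p = 0.0582 from limma) and elt-3 of 0.28 (adjusted p = 0.0137), and lin-26 became 0.44 with library totals and -0.44 with median centring, while elt-3 was at 0.0053 with median centring. In the seam cell list, rnt-1 was at 2.45, 2.50, 2.39 and 2.52 CPM in pals-17(*) mutants, against 1.25, 1.36, 0.90 and 0.48 CPM in wild-type animals (log2 fold change 1.37, adjusted p = 0.00159 from limma). Its log2 fold change was 0.23 (adjusted p = 0.357) with quantile normalization. Its partner gene bro-1 was at -0.38 (adjusted p = 0.0364 from limma) but at 0.22 (adjusted p = 0.193) with library totals.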
